A study of Mus musculus with 6 samples.

Results

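The 10 genes Acta2, Tagln, Myl9, Pdgfra, Pdgfrb, Postn, Fn1, Tnc, Vim and Des, which mark contractile, pericyte and matrix-producing cells of the kidney, were taken by gene symbol from a table of 17684 genes, in which their NCBI Gene numbers are, in the same order, 11475, 21345, 98932, 18595, 18596, 50706, 14268, 21923, 22352 and 13346. In the kidney, pericytes and resident fibroblasts lie between tubules and capillaries, and mesangial cells hold the capillary loops of the glomerulus together. When such cells become myofibroblasts they form actin bundles and lay down matrix, under signals that include PDGF and TGF-beta. Several of these genes are not private to such cells: vimentin, for example, is also made by leukocytes, endothelial cells, podocytes and injured tubule cells. The study compared the kidneys of db/db mice, which lack a working leptin receptor and become obese and diabetic, with and without a statin, an inhibitor of cholesterol synthesis. The Db group was db/db mice of strain C57 BLKS/L, 50 weeks old, given normal saline for 40 weeks. The Db + Ato10 group had the same genotype, strain and age and received atorvastatin at 10 mg/kg per day for 40 weeks. The study's methods name the strain background C57BLKS/J and male mice only, and 1 label field names atorvastatin for all 6 libraries, whereas the titles and the treatment field separate 3 libraries of each group. No lean control kidney was among these 6 libraries.

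Kidney RNA was sequenced in bulk, and whether whole organs or pieces were used is not stated in the sources used here. Each library held between 11381678 and 14667909 expected counts, so that 3 counts in a library stood for 0.198 to 0.260 CPM (counts scaled to a common library size). Levels of 1 gene across libraries are given as CPM after TMM scaling or as TPM. Levels of different genes are set side by side only as TPM, which allows for transcript length. Values of a group are listed in the order of replicates 1, 2 and 3. The libraries did not stand evenly within their groups. All 10 genes were above every Db library in CPM in Db + Ato10 replicate 1, 7 were in replicate 2 and 3 were in replicate 3, beside 38.6, 35.1 and 23.5% of all genes tested, so the count in replicate 3 was near that share. The median log2 difference of the 10 genes from the Db mean was 2.17, 0.92 and 0.32 in Db + Ato10 replicates 1, 2 and 3, so the group was led by replicate 1 while replicate 3 lay close to Db. Db replicate 1 also went against the description of the mice: the Y-linked genes Uty, Ddx3y, Eif2s3y and Kdm5d summed to 2 counts there, against 1419 to 2116 in the other 5 libraries. The log2 fold changes of the 10 genes are therefore also given without Db + Ato10 replicate 1, and the numbers of calls with Db replicate 1, or replicate 3 of Db + Ato10, left out.

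All 10 genes had a higher fitted level in Db + Ato10 than in Db, with a median log2 fold change of 1.30 beside -0.01 over the 13679 genes tested. In edgeR's quasi-likelihood test none of the 10 passed the study's criteria for a differentially expressed gene, a fold change over 1.5 and an adjusted p under 0.05, and neither did any other gene (0% of genes tested). The smallest edgeR adjusted p over all genes was 0.239. At an unadjusted p under 0.05, 6 of the 10 genes (Tagln, Pdgfrb, Postn, Fn1, Tnc and Vim) were higher in Db + Ato10, against 11.2% of all genes tested, and none was lower, against 5.71%. Groups that did not overlap were seen for Tagln, Fn1 and Tnc, 3 of 10, where 12.0% of all genes tested lay higher in every Db + Ato10 library and 11.3% lower. DESeq2 placed 4 of the 10 (Postn, Fn1, Tnc and Vim) past both criteria, all higher, beside 5.19% of the genes for which it gave an adjusted p, and 884 genes in all in either direction. With 1 library left out, in fits chosen after the values were seen, DESeq2 called 0, 2 (Fn1 and Tnc) and 1 (Tnc) of the 10 without Db replicates 1, 2 and 3, beside 1.202, 4.036 and 1.322% of genes called higher in those fits. It called 2 (Fn1 and Tnc), 4 (the same 4) and 7 (also Acta2, Tagln and Pdgfrb) without Db + Ato10 replicates 1, 2 and 3, beside 1.505, 2.308 and 11.84%, so the DESeq2 calls changed with the libraries used. Without Db replicate 1 the DESeq2 log2 fold changes of Postn, Fn1, Tnc and Vim were 3.14, 3.11, 2.22 and 2.62. Without Db + Ato10 replicate 3, edgeR called Tagln, Postn, Fn1, Tnc and Vim, 5 of 10, beside 5.96% of genes called higher in that fit, and no gene of the table passed when any of the other 5 libraries was left out. Without Db replicate 1 the edgeR fit again called none of the 10, 3 were higher at an unadjusted p under 0.05, beside 5.16% of the genes in that fit, and the median log2 fold change was 1.54. Without Db + Ato10 replicate 1 that median was 0.64. With 3 libraries a group, an exact two-sided permutation test of a single gene cannot give a p under 0.1. In whole tissue, more cells of a type and more RNA per cell cannot be told apart.

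**Figure D1:**
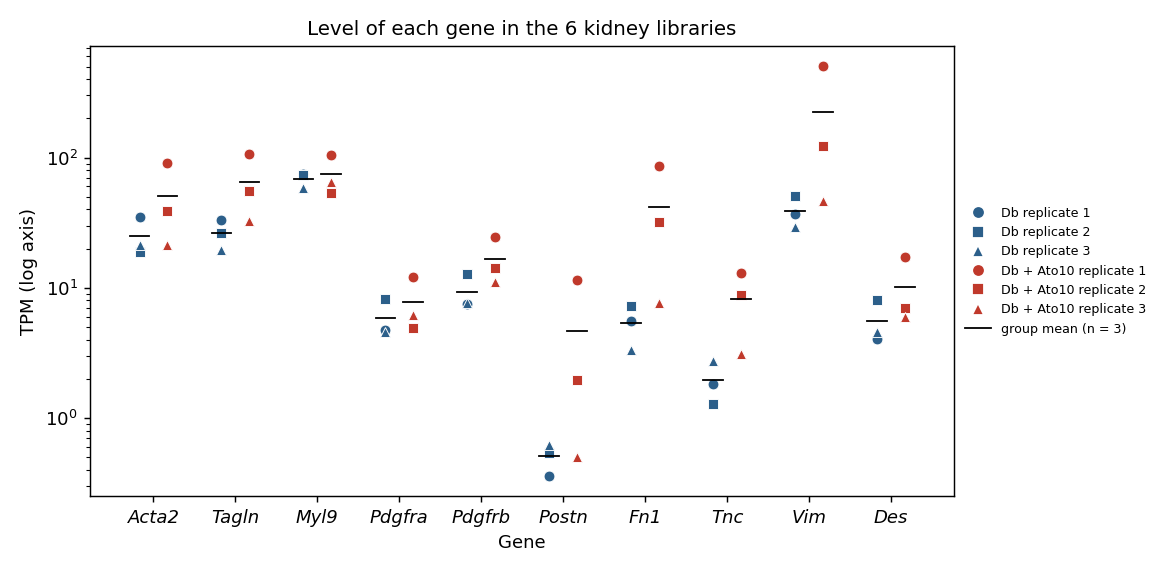
TPM of the 10 genes (log axis) in each of the 3 Db (blue) and 3 Db + Ato10 (red) libraries, 1 point per library and a black bar at each group mean. Db + Ato10 replicate 1 is the highest library for every gene shown, whereas Db + Ato10 replicate 3 lies within or near the Db points for most of them.

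Among the contractile genes, Tagln and Acta2 differed more between the groups than Myl9. Tagln encodes transgelin, an actin-binding protein of smooth muscle, and its level was 28.4, 22.4 and 16.6 CPM in Db and 102, 47.2 and 29.8 CPM in Db + Ato10. Every Db + Ato10 library was above every Db library in CPM, although replicate 3 lay only slightly above Db replicate 1, and in TPM those 2 libraries changed places. Tagln gave log2 fold change 1.41 (SE 0.47, edgeR adjusted p = 0.239) and DESeq2 adjusted p = 0.0582. Its log2 fold change was 0.79 once Db + Ato10 replicate 1 was left out. Acta2 encodes smooth muscle alpha-actin, the actin by which myofibroblasts are commonly recognised, at 46.0, 27.2 and 30.7 CPM in Db and 147, 56.5 and 32.7 CPM in Db + Ato10. The level in Db + Ato10 replicate 1 stood far above the rest, replicate 2 was above all Db libraries, and replicate 3 fell among the Db values, so the groups overlapped. The test gave log2 fold change 1.18 (SE 0.55, edgeR adjusted p = 0.324) for Acta2, and the log2 fold change was 0.37 without Db + Ato10 replicate 1. Myl9, the regulatory light chain of smooth muscle myosin, was at 41.2, 40.7 and 32.5 CPM in Db and 65.1, 29.8 and 38.4 CPM in Db + Ato10. Its highest and lowest libraries were both in the Db + Ato10 group, with log2 fold change 0.22 (SE 0.30, edgeR adjusted p = 0.696), and the sign turned without Db + Ato10 replicate 1 (-0.15). The sequences of actin and of regulatory light chain genes are alike, and reads shared between Acta2 and Actg2, or between Myl9 and Myl12a or Myl12b, could have been split in the counting, which leaves these values uncertain to that extent.

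The groups overlapped for both PDGF receptor genes. Pdgfrb, the receptor that pericytes and mesangial cells need for their recruitment, was at 23.4, 39.8 and 23.9 CPM in Db and 86.0, 44.7 and 37.0 CPM in Db + Ato10. Db + Ato10 replicate 3 was below Db replicate 2, which kept the groups overlapping, while the other Db + Ato10 libraries were above all of Db. Pdgfrb gave log2 fold change 0.95 (SE 0.38, edgeR adjusted p = 0.283), and 0.50 without Db + Ato10 replicate 1. Pdgfra, the receptor typical of interstitial fibroblasts, was at 18.2, 31.4 and 17.6 CPM in Db and 51.4, 18.9 and 25.3 CPM in Db + Ato10. Apart from the high value in Db + Ato10 replicate 1 the groups covered the same range, with log2 fold change 0.51 (SE 0.42, edgeR adjusted p = 0.525), and the sign turned when that library was left out (-0.011). Of the 4 ligand genes, 2 were higher and 1 lower at an unadjusted p under 0.05 (all genes: 11.2% and 5.71%), with a median log2 fold change of 0.44. Pdgfa, whose product binds PDGFR-alpha, was at 22.1, 24.8 and 25.9 TPM in Db and 69.5, 61.7 and 28.3 TPM in Db + Ato10, with every Db + Ato10 library above every Db library. It gave log2 fold change 1.24 (SE 0.33, edgeR adjusted p = 0.239) and DESeq2 adjusted p = 0.0198. Pdgfb, the main ligand of PDGFR-beta, gave log2 fold change 0.91 (SE 0.37, edgeR adjusted p = 0.287) with overlapping groups. Pdgfc lay in the other direction, at 14.2, 12.0 and 16.9 TPM in Db and 8.02, 9.62 and 10.6 TPM in Db + Ato10, so that every Db + Ato10 library was below every Db library. Its test gave log2 fold change -0.61 (SE 0.20, edgeR adjusted p = 0.239), and Pdgfd gave log2 fold change -0.03 (SE 0.22, edgeR adjusted p = 0.945).

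In the edgeR fit of all 6 libraries Postn and Fn1 had the largest fold changes of the 10, and Tnc, the remaining matrix gene, came next after Vim. Without Db + Ato10 replicate 1 the order was Fn1, Tnc, Postn and Vim. Fn1 encodes fibronectin, a scaffold on which collagen is assembled, and stood at 26.1, 33.6 and 15.5 CPM in Db and 444, 148 and 37.6 CPM in Db + Ato10. The groups did not overlap, but the distance was very uneven: Db + Ato10 replicates 1 and 2 were far above Db, and replicate 3 just exceeded the highest Db library. The group means were 25.1 ± 9.10 CPM in Db and 210.1 ± 210.3 CPM in Db + Ato10 (SD, n = 3 each), with log2 fold change 3.07 (SE 0.86, edgeR adjusted p = 0.239) and DESeq2 adjusted p = 0.00327. Its log2 fold change fell to 1.91 when Db + Ato10 replicate 1 was left out. Tnc encodes tenascin-C, a matrix protein of developing and healing tissue, and was at 6.36, 4.42 and 9.29 CPM in Db and 50.7, 32.4 and 12.1 CPM in Db + Ato10. Here all 3 Db + Ato10 libraries were above all 3 Db libraries and the treated libraries lay closer together than for Fn1. Tnc gave log2 fold change 2.24 (SE 0.55, edgeR adjusted p = 0.239) and DESeq2 adjusted p = 0.00353, and its log2 fold change without Db + Ato10 replicate 1 was 1.74. Postn encodes periostin, a matricellular protein of injured and fibrotic tissue, and was the scarcest of the 10, with 0.636, 0.954 and 1.13 CPM in Db and 22.9, 3.51 and 0.945 CPM in Db + Ato10. In counts, Db held 8, 11 and 14, and Db + Ato10 held 347, 52 and 12. Replicates 1 and 2 of Db + Ato10 were above Db, and replicate 3 was within the Db range. Postn gave log2 fold change 3.32 (SE 1.15, edgeR adjusted p = 0.249) and DESeq2 adjusted p = 0.0219, with a log2 fold change of 1.31 without Db + Ato10 replicate 1. It passed the filter on low counts, although Db replicate 1 held fewer than 10.

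Fibronectin is made in spliced forms, and the form with the extra domain A is the one tied to myofibroblasts. The deposited transcript table split Fn1 into 11 transcripts, 6 of which had an exon model in GENCODE M21. An exon of 270 bases at chr1:71603660-71603929 (GRCm38), the length of the extra domain A exon, was present in 3 of the 6. These 3 transcripts held 30.2% (25.5 to 35.4%), 25.0% (20.9 to 29.6%) and 30.7% (24.6 to 37.6%) of the matched Fn1 counts in Db replicates 1 to 3. In Db + Ato10 replicates 1 to 3 they held 23.8% (22.7 to 24.8%), 8.07% (6.98 to 9.31%) and 29.7% (25.7 to 34.2%). The ranges are 95% Wilson intervals that treat every expected count as a read that tells the forms apart. Reads away from the exon do not, so the ranges understate even the counting error, and libraries are not compared by them. The share in Db + Ato10 replicate 3 was within the Db range, that in replicate 1 was just under Db replicate 2, and that in replicate 2 was lower than in any other library. Matched transcripts held 91.6 to 100% of the Fn1 counts of a library. This description was chosen after the values were seen, and the assignment of short reads to transcripts is an estimate of the authors' software. The most abundant Fn1 transcript, NM_001276410.1, lacks the exon and had 152, 248 and 115 expected counts in Db and 3188, 1359 and 273 in Db + Ato10.

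Of the intermediate filament genes, Vim differed most. Vim encodes vimentin, the filament of mesenchymal cells, and was at 36.8, 51.0 and 29.5 CPM in Db and 564, 123 and 49.3 CPM in Db + Ato10. Db + Ato10 replicate 1 was an order of magnitude above any Db library, replicate 2 was also above Db, and replicate 3 was within the Db range, just under Db replicate 2. The means were 39.1 ± 10.9 CPM in Db and 245 ± 278 CPM in Db + Ato10 (SD, n = 3 each). Vim gave log2 fold change 2.65 (SE 0.87, edgeR adjusted p = 0.239) and DESeq2 adjusted p = 0.0154, and its log2 fold change was 1.16 without Db + Ato10 replicate 1. Des encodes desmin, the filament of muscle cells, pericytes and mesangial cells, at 7.07, 13.9 and 7.92 CPM in Db and 33.4, 12.2 and 11.1 CPM in Db + Ato10. Replicates 2 and 3 of Db + Ato10 were below Db replicate 2, so only replicate 1 stood apart, and Des gave log2 fold change 0.98 (SE 0.50, edgeR adjusted p = 0.357), or 0.29 without that library. Of the genes listed as partners of such filaments or as otherwise related to intermediate filaments, all 6 were tested. At an unadjusted p under 0.05, 2 were higher and 0 lower (all genes: 11.2% and 5.71%), and the median log2 fold change was 0.49. Plec, the linker protein plectin, gave log2 fold change 0.90 (SE 0.29, edgeR adjusted p = 0.239), and Lmna, which encodes the nuclear lamins A and C, gave log2 fold change 0.77 (SE 0.21, edgeR adjusted p = 0.239) and DESeq2 adjusted p = 0.0342. The small heat shock gene Cryab was the most abundant of them in TPM and lowest in fold change, with log2 fold change -0.15 (SE 0.45, edgeR adjusted p = 0.869).

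**Figure D2:**
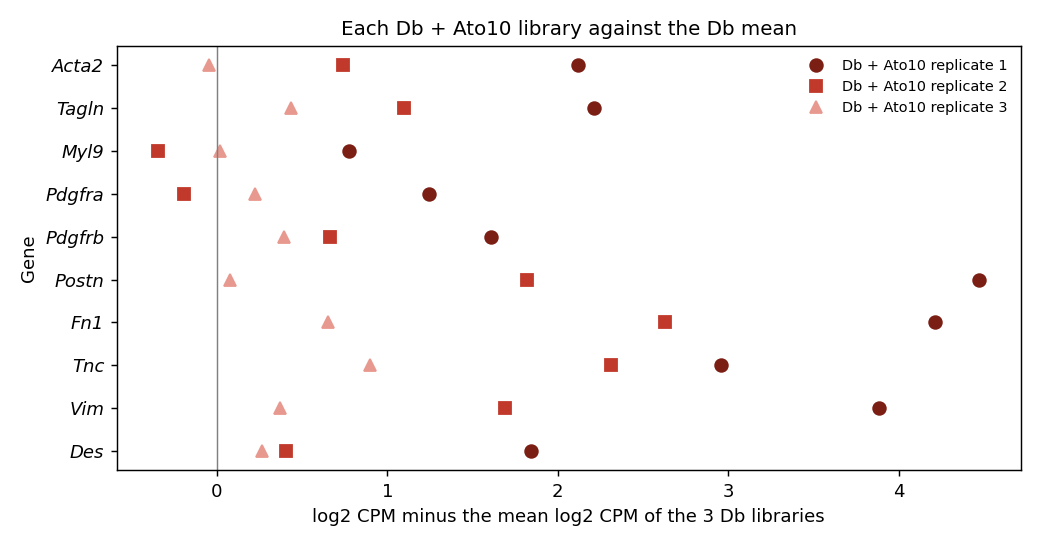
Difference in log2 CPM of each Db + Ato10 library from the mean of the 3 Db libraries, for each of the 10 genes; the vertical line marks no difference. Replicate 1 lies furthest to the right for every gene, and the median over the genes was 2.17, 0.92 and 0.32 in replicates 1, 2 and 3.

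Set in order of mean TPM in the Db kidneys, the 10 genes were Myl9 (68.8), Vim (39.0), Tagln (26.3), Acta2 (25.2), Pdgfrb (9.26), Pdgfra (5.84), Des (5.53), Fn1 (5.39), Tnc (1.95) and Postn (0.507 TPM). Within each Db library Myl9 was the highest and Vim the second, Pdgfrb lay above Pdgfra, Des and Fn1, and Tnc and Postn were the lowest. Tagln and Acta2 changed places between Db libraries. In Db + Ato10 the mean TPM of Vim was 223 and that of Fn1 was 41.9, beside 74.3 TPM for Myl9 and 50.5 TPM for Acta2. The means rest largely on replicate 1: Vim was above Myl9 in replicates 1 and 2 but below it in replicate 3 (46.2 against 65.2 TPM), and Fn1 was below Acta2 in all 3, by the most in replicate 3 (7.59 against 21.3 TPM).

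Genes that act with the 10 were read from lists of related function. For the contractile apparatus of smooth muscle, 10 of 11 listed genes were tested, with 2 higher and 0 lower at an unadjusted p under 0.05 (all genes: 11.2% and 5.71%) and a median log2 fold change of 0.29. Tpm2, a tropomyosin and the highest of this list, gave log2 fold change 1.08 (SE 0.42, edgeR adjusted p = 0.280), and Tpm1 gave log2 fold change 1.06 (SE 0.31, edgeR adjusted p = 0.239) and DESeq2 adjusted p = 0.0366. Both had every Db + Ato10 library above every Db library in CPM. Myl6, the essential myosin light chain of many cell types, was the most abundant in TPM and gave log2 fold change 0.50 (SE 0.22, edgeR adjusted p = 0.309). Myh11, the smooth muscle myosin heavy chain, gave log2 fold change 0.09 (SE 0.42, edgeR adjusted p = 0.920), and Mylk, the kinase of the myosin light chain, gave log2 fold change 0.01 (SE 0.18, edgeR adjusted p = 0.988). Lmod1, an actin filament nucleator and the lowest of the list, gave log2 fold change -0.25 (SE 0.40, edgeR adjusted p = 0.748), and Cnn1, which encodes calponin, gave log2 fold change 0.96 (SE 0.56, edgeR adjusted p = 0.400) with overlapping groups. Smtn, which encodes smoothelin, gave log2 fold change -0.21 (SE 0.13, edgeR adjusted p = 0.435), with every Db + Ato10 library slightly below every Db library in CPM. The remaining genes tested, Cald1 and Synpo2, gave log2 fold change 0.69 (SE 0.33, edgeR adjusted p = 0.331) and log2 fold change -0.24 (SE 0.36, edgeR adjusted p = 0.725). Actg2, the enteric smooth muscle actin, was not tested because of low counts, and was at 0.11, 0.13 and 0.12 TPM in Db and 5.25, 1.07 and 0.43 TPM in Db + Ato10. Serum response factor and its cofactors drive many contractile genes. Of these, 3 of 4 listed genes were tested, with 1 higher and 0 lower at an unadjusted p under 0.05 (all genes: 11.2% and 5.71%) and a median log2 fold change of 0.55. Srf was the most abundant in TPM and lowest in fold change, with log2 fold change 0.03 (SE 0.17, edgeR adjusted p = 0.939), and Mrtfb, highest and listed under its older symbol Mkl2, gave log2 fold change 0.59 (SE 0.18, edgeR adjusted p = 0.239).

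For matrix synthesis by myofibroblasts, all 16 listed genes were tested, with 11 higher and 0 lower at an unadjusted p under 0.05 (all genes: 11.2% and 5.71%) and a median log2 fold change of 2.15. DESeq2 placed 10 past both criteria, all higher (all genes: 5.19%), and in 6 every Db + Ato10 library was above every Db library (all genes: 12.0%). Col1a1, a chain of type I collagen, was at 1.36, 4.1 and 1.26 TPM in Db and 95.9, 51.4 and 6.87 TPM in Db + Ato10, and Col3a1, of type III collagen, was at 2.99, 5.35 and 2.59 TPM in Db and 89.4, 49.1 and 13.4 TPM in Db + Ato10. For both, each Db + Ato10 library exceeded all Db libraries, replicate 3 included. Col1a1 gave log2 fold change 4.63 (SE 1.05, edgeR adjusted p = 0.239) and DESeq2 adjusted p = 1.80e-05, and Col3a1 gave log2 fold change 3.90 (SE 0.74, edgeR adjusted p = 0.239) and DESeq2 adjusted p = 1.38e-06. Eln, which encodes elastin, was the lowest of the list, with log2 fold change 0.52 (SE 0.39, edgeR adjusted p = 0.487). The proteoglycan gene Bgn was the most abundant in TPM and gave log2 fold change 0.94 (SE 0.40, edgeR adjusted p = 0.309). Among the ligands and receptors of the TGF-beta pathway, all 6 listed genes were tested, with 4 higher and 0 lower at an unadjusted p under 0.05 (all genes: 11.2% and 5.71%) and a median log2 fold change of 0.81. Tgfb1, its highest, was at 12.6, 14.7 and 14.1 TPM in Db and 74.4, 38.7 and 18.7 TPM in Db + Ato10, without overlap of the groups, and gave log2 fold change 1.78 (SE 0.49, edgeR adjusted p = 0.239) and DESeq2 adjusted p = 0.0135. The receptor gene Tgfbr2, most abundant in TPM, gave log2 fold change 0.62 (SE 0.19, edgeR adjusted p = 0.239), and the co-receptor gene Tgfbr3 was lowest with log2 fold change -0.16 (SE 0.18, edgeR adjusted p = 0.642).

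Among receptors that bind fibronectin, tenascin-C or periostin, all 11 listed genes were tested, with 3 higher and 0 lower at an unadjusted p under 0.05 (all genes: 11.2% and 5.71%) and a median log2 fold change of 0.50. Cd44, a hyaluronan receptor that also binds matrix proteins, was the highest, at 0.56, 1.91 and 0.51 TPM in Db and 82.5, 20.1 and 2.2 TPM in Db + Ato10. No Db library reached the lowest Db + Ato10 library, and the test gave log2 fold change 5.29 (SE 1.37, edgeR adjusted p = 0.239) and DESeq2 adjusted p = 8.48e-05. Itga5, the alpha chain of the classical fibronectin receptor, gave log2 fold change 2.29 (SE 0.79, edgeR adjusted p = 0.249) and DESeq2 adjusted p = 0.0334, whereas its partner Itgb1 gave log2 fold change 0.50 (SE 0.25, edgeR adjusted p = 0.343). Itga8, an alpha chain found on mesangial cells and smooth muscle, was the lowest, with log2 fold change -0.62 (SE 0.29, edgeR adjusted p = 0.324) and every Db + Ato10 library below every Db library in CPM. Sdc4, a syndecan and the most abundant of the list in TPM, gave log2 fold change 0.31 (SE 0.22, edgeR adjusted p = 0.472).

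The 10 genes were set against markers of cells that could carry them. For pericytes and mesangial cells, all 7 listed genes were tested, with 1 higher and 0 lower at an unadjusted p under 0.05 (all genes: 11.2% and 5.71%) and a median log2 fold change of 0.20. Their summed level was 61.6, 61.0 and 52.1 TPM in Db and 89.5, 50.4 and 47.1 TPM in Db + Ato10. The sum in Db + Ato10 replicates 2 and 3 was below that in every Db library, and only replicate 1 was above them. Rgs5, the most abundant in TPM, gave log2 fold change 0.01 (SE 0.34, edgeR adjusted p = 0.990), and the endothelial and pericyte adhesion gene Mcam, the highest, gave log2 fold change 0.95 (SE 0.36, edgeR adjusted p = 0.272). For vascular smooth muscle, 4 of 5 listed genes were tested, with 0 higher and 0 lower at an unadjusted p under 0.05 (all genes: 11.2% and 5.71%) and a median log2 fold change of -0.08. Summed, these markers were at 13.5, 8.58 and 9.49 TPM in Db and 21.6, 9.56 and 9.73 TPM in Db + Ato10. Among the treated libraries only replicate 1 exceeded all of Db. Myh11 was the most abundant in TPM, Cnn1 the highest, and Pln the lowest with log2 fold change -0.43 (SE 0.43, edgeR adjusted p = 0.592). Of the fibroblast markers, 5 of 6 listed genes were tested, with 2 higher and 0 lower at an unadjusted p under 0.05 (all genes: 11.2% and 5.71%) and a median log2 fold change of 0.90. They summed to 26.3, 49.8 and 47.0 TPM in Db and 327, 62.8 and 56.0 TPM in Db + Ato10. Dcn (decorin), the most abundant in TPM, stood out in Db + Ato10 replicate 1 with 248 TPM against 11.3 to 30.4 TPM in Db and 32.7 and 35.4 TPM in replicates 2 and 3, and gave log2 fold change 2.42 (SE 0.92, edgeR adjusted p = 0.272). Lum was the highest with log2 fold change 2.72 (SE 0.90, edgeR adjusted p = 0.239), and Col14a1 the lowest with log2 fold change 0.14 (SE 0.33, edgeR adjusted p = 0.832). Mfap5, not tested for its low counts, was at 0.32, 0.4 and 0.63 TPM in Db and 22.7, 10.6 and 0.91 TPM in Db + Ato10. Markers of activated myofibroblasts were scarce: of 5 listed genes 2 were tested, of which 1 was higher at an unadjusted p under 0.05 (all genes: 11.2%), and their summed level was 10.4, 5.32 and 3.33 TPM in Db and 11.6, 11.3 and 5.27 TPM in Db + Ato10. Col8a1 was the most abundant of these in TPM and lowest in fold change, with log2 fold change 0.38 (SE 0.50, edgeR adjusted p = 0.692), and Adam12 was the highest, with log2 fold change 1.77 (SE 0.67, edgeR adjusted p = 0.272). Fap, Cthrc1 and Lrrc15 were under the filter, with Lrrc15 at 0.08, 0.25 and 0.16 TPM in Db and 0.15, 0.04 and 0.12 TPM in Db + Ato10. Fap was at 0.17, 0.07 and 0.34 TPM in Db and 1.57, 0.6 and 0.12 TPM in Db + Ato10, and Cthrc1 at 0.46, 0.17 and 0.27 TPM in Db and 0.9, 1.23 and 0.25 TPM in Db + Ato10. Both were above every Db library in Db + Ato10 replicates 1 and 2 and within the Db range in replicate 3.

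**Figure D3:**
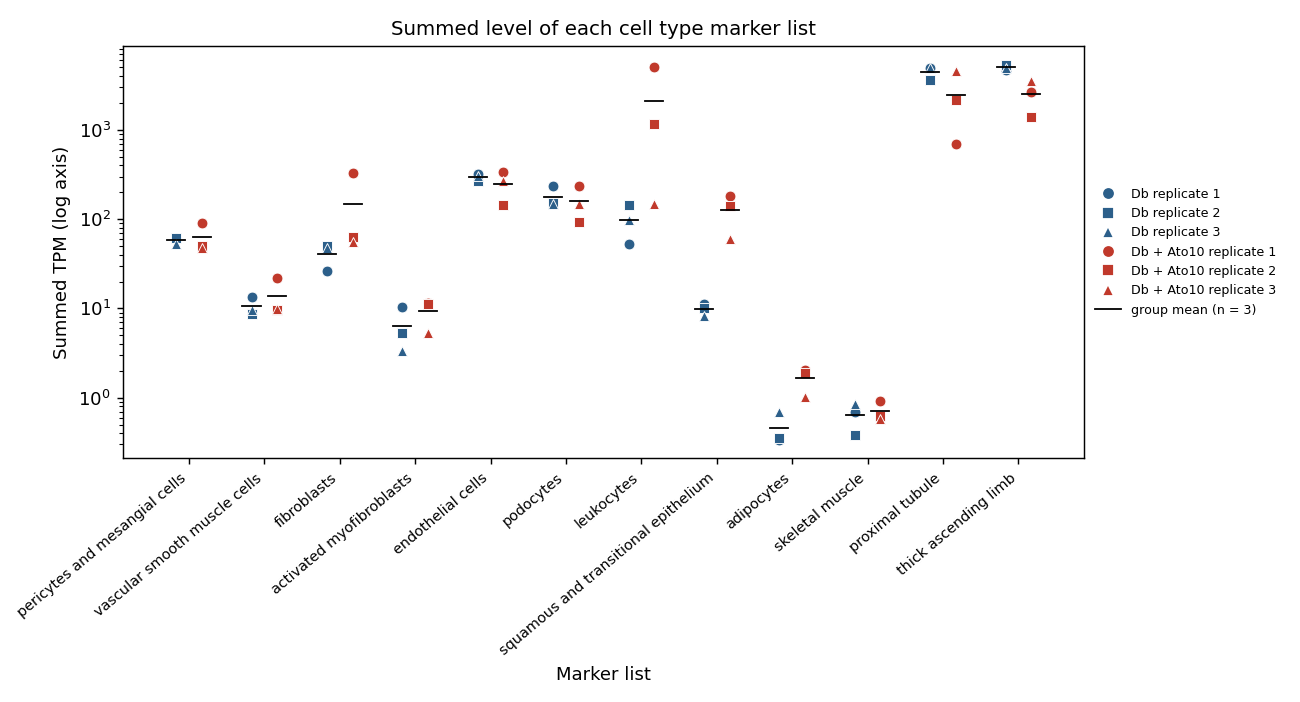
Summed TPM (log axis) of each cell type marker list in the 3 Db (blue) and 3 Db + Ato10 (red) libraries, with a black bar at each group mean. The leukocyte sum is highest in Db + Ato10 replicates 1 and 2, the proximal tubule sum is lowest in the same 2 libraries, and the sums for pericytes and for vascular smooth muscle overlap between the groups.

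Markers of leukocytes and of tubule segments were set beside the 10 genes. For leukocytes, 6 of 8 listed genes were tested, with 6 higher and 0 lower at an unadjusted p under 0.05 (all genes: 11.2% and 5.71%) and a median log2 fold change of 3.77. Their markers together reached 52.1, 143 and 98.8 TPM in Db and 5022, 1151 and 148 TPM in Db + Ato10. Db + Ato10 replicate 1 was the highest and replicate 2 next, while replicate 3 lay only slightly above Db replicate 2. The treated libraries stood in the same order for 8 of the 10 genes, all but Myl9 and Pdgfra. The share of all genes in that order was not counted, so the 8 are given as a description. Of all genes tested, 38.6, 35.1 and 23.5% were above every Db library in Db + Ato10 replicates 1, 2 and 3. Lyz2, the lysozyme of macrophages and most abundant in TPM, gave log2 fold change 4.76 (SE 1.31, edgeR adjusted p = 0.239) and DESeq2 adjusted p = 0.000271. Itgam was the highest with log2 fold change 5.56 (SE 1.55, edgeR adjusted p = 0.239) and Laptm5 the lowest with log2 fold change 2.92 (SE 0.88, edgeR adjusted p = 0.239). Vimentin is made by leukocytes, and macrophages can make fibronectin. The part of leukocytes in the levels of Vim, Fn1 and the other genes was not tested. Of the proximal tubule markers, all 6 listed genes were tested, with 0 higher and 0 lower at an unadjusted p under 0.05 (all genes: 11.2% and 5.71%) and a median log2 fold change of -0.78. The sum of their levels was 4896, 3662 and 4885 TPM in Db and 690.3, 2178 and 4512 TPM in Db + Ato10. Db + Ato10 replicates 1 and 2 were below every Db library, and replicate 3 was within the Db range. Slc34a1, a phosphate transporter and most abundant in TPM, gave log2 fold change -0.80 (SE 0.79, edgeR adjusted p = 0.587), Slc22a6 was the highest with log2 fold change -0.24 (SE 0.57, edgeR adjusted p = 0.835) and Slc5a2 the lowest with log2 fold change -1.55 (SE 0.78, edgeR adjusted p = 0.349). For the thick ascending limb, all 5 listed genes were tested, with 0 higher and 4 lower at an unadjusted p under 0.05 (all genes: 11.2% and 5.71%) and a median log2 fold change of -1.22. The corresponding sum was 4742, 5377 and 4957 TPM in Db and 2663, 1386 and 3570.5 TPM in Db + Ato10. All 3 treated libraries were below all 3 Db libraries. Egf was the lowest, with log2 fold change -2.06 (SE 0.66, edgeR adjusted p = 0.239), and Umod, most abundant in TPM, the highest, with log2 fold change -0.46 (SE 0.46, edgeR adjusted p = 0.591). A lower share of tubule RNA raises the share of every other cell, and its part in the levels of the 10 genes was not tested.

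Of the endothelial markers, all 8 listed genes were tested, with 0 higher and 1 lower at an unadjusted p under 0.05 (all genes: 11.2% and 5.71%) and a median log2 fold change of -0.31. In sum they were at 319, 266 and 304 TPM in Db and 334, 144 and 269 TPM in Db + Ato10. Db + Ato10 replicate 1 was the highest library and replicate 2 the lowest. Emcn was both the most abundant in TPM and the highest, with log2 fold change 0.15 (SE 0.34, edgeR adjusted p = 0.829), and Kdr the lowest, with log2 fold change -1.05 (SE 0.36, edgeR adjusted p = 0.246). Of the podocyte markers, all 6 listed genes were tested, with 1 higher and 0 lower at an unadjusted p under 0.05 (all genes: 11.2% and 5.71%) and a median log2 fold change of -0.04. Added together, their levels were 234, 153 and 149 TPM in Db and 236, 93.9 and 146 TPM in Db + Ato10. The treated group again held both the highest and the lowest library. Podxl was the most abundant in TPM and gave log2 fold change -0.28 (SE 0.38, edgeR adjusted p = 0.703), and Nphs1 was the lowest with log2 fold change -0.49 (SE 0.60, edgeR adjusted p = 0.667). For squamous and transitional epithelium, 6 of 10 listed genes were tested, with 5 higher and 0 lower at an unadjusted p under 0.05 (all genes: 11.2% and 5.71%) and a median log2 fold change of 5.11. Of the 6, Krt5, Krt14 and Krt15 passed the filter on low counts only through the Db + Ato10 libraries. The count and median are therefore a description and no test of this list. The total level of the listed genes was 11.1, 10.1 and 8.17 TPM in Db and 182, 142 and 59.2 TPM in Db + Ato10. All 3 Db + Ato10 libraries were above Db, replicate 3 by the least. Their part in the levels of the 10 genes was not tested. Markers of fat and skeletal muscle, which can adhere to a dissected kidney, were scarce in all libraries, and the part of such tissue in the levels of the 10 genes was not tested. Adipocyte markers summed to 0.34, 0.35 and 0.7 TPM in Db and 2.06, 1.88 and 1.02 TPM in Db + Ato10, and Adipoq was at 0, 0 and 0.13 TPM in Db and 0.09, 0 and 0.12 TPM in Db + Ato10. Cidec, the 1 gene of that list that was tested, gave log2 fold change 1.58 (SE 0.44, edgeR adjusted p = 0.239), with every Db + Ato10 library above every Db library. It held 4, 4 and 6 counts in Db and 14, 24 and 12 in Db + Ato10. Cidec thus passed the filter on low counts only through the group where it was higher, and its values are given as a description. Skeletal muscle markers, none of which was tested, summed to 0.7, 0.38 and 0.84 TPM in Db and 0.93, 0.63 and 0.58 TPM in Db + Ato10. Ckm was at 0, 0 and 0 TPM in Db and 0.16, 0 and 0 TPM in Db + Ato10, and Actn3 was the most abundant in TPM.

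By transcript, the table held 34 entries for the 10 genes, of which 19 passed the filter, among 30175 transcripts tested. None passed both criteria in edgeR, beside 0% of all transcripts tested; 7 of the 19 were higher at an unadjusted p under 0.05, beside 5.38% of all, and none was lower. DESeq2 placed 3 past both criteria, all higher, beside 1.91% of the transcripts it gave an adjusted p. Of these 3, XM_006495699.3 of Fn1 had 0 counts in every Db library and passed the filter on low counts only through Db + Ato10. For NM_011607.3 of Tnc, Db replicate 1 was the only Db library to reach 10 counts. Both are also among the 7, so these transcript counts are given as a description. Tnc was split between transcripts that did not move alike in every library. XM_006537777.1 had 57.3, 39.5 and 89.5 expected counts in Db and 471, 257 and 32.5 in Db + Ato10. NM_011607.3 had 12.6, 6.28 and 5.02 expected counts in Db and 165, 156 and 41.0 in Db + Ato10, and XM_006537776.1 had 10.1, 5.21 and 20.5 expected counts in Db and 111, 23.6 and 62.2 in Db + Ato10. The first was lower in Db + Ato10 replicate 3 than in every Db library, while the other 2 were higher in all 3 Db + Ato10 libraries than in Db, and XM_006537776.1 was the largest form in Db + Ato10 replicate 3. NM_011607.3 gave log2 fold change 3.68 (SE 0.73, edgeR adjusted p = 0.359), and DESeq2 adjusted p = 0.000343. Most Acta2 counts were on NM_007392.3. For Postn, NM_001198766.1 had 3.84, 8.31 and 0 expected counts in Db and 325, 47.5 and 8.82 in Db + Ato10 and was not tested for its low counts; it held most Postn counts in the Db + Ato10 libraries and in Db replicate 2, but not in Db replicate 1, and none in Db replicate 3. For Pdgfrb, NM_008809.2 had 198, 398 and 179 expected counts in Db and 887, 422 and 397 in Db + Ato10 and NM_001146268.1 had 96.5, 59.7 and 117 expected counts in Db and 415, 239 and 71.9 in Db + Ato10. NM_008809.2 outweighed the other form most in Db replicate 2 and in Db + Ato10 replicate 3, so their proportion varied within both groups.

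Genes with the profile most like that of Acta2 over the 6 libraries were sought among 10013 genes with a mean of at least 10 CPM outside the 10. The highest Pearson r of log2 CPM were Git2 (0.998), Arf2 (0.996), Capza1 (0.995), Tomm34 (0.995) and Riok3 (0.994). For Postn they were Fcgr2b (0.998), Acp5 (0.997), Nin (0.995), Tcirg1 (0.995) and Emilin2 (0.994). Fcgr2b encodes an inhibitory antibody receptor of myeloid and B cells, Acp5 the tartrate-resistant phosphatase of osteoclasts and macrophages, and Tcirg1 a subunit of the vacuolar proton pump. The r rest on 6 libraries that include the far-lying Db + Ato10 replicate 1, and are given as a description.

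Smooth muscle genes carry CArG boxes, bound by serum response factor, near their start. RefSeq promoter entries were matched for 7 of the 10 genes (Acta2, Myl9, Pdgfra, Postn, Tnc, Vim and Des), and the 250 bases before each start were searched on both strands. A strict CArG box was present for Myl9 alone among the 7, beside 1.47% of all 32851 entries. Allowing 1 substitution in the A/T core, a setting chosen after the sequence was seen, Acta2 and Myl9 had 2 each, beside 8.59% of entries with at least 1. The MCAT element CATTCC was present for Acta2 alone, beside 12.6% of entries. The 2 windows are shown because they belong to 2 contractile genes that both hold a CArG box of at most 1 substitution while the measured difference was larger for Acta2 (log2 fold change 1.18) than for Myl9 (0.22), a contrast that was not tested. Both are from GRCm38.p6, 5′ to 3′ on the strand of the gene, with CArG boxes of at most 1 substitution and the MCAT element in capitals; Acta2 is at chr19:34255374-34255623 on the minus strand and Myl9 at chr2:156775214-156775463 on the plus strand.
Acta2: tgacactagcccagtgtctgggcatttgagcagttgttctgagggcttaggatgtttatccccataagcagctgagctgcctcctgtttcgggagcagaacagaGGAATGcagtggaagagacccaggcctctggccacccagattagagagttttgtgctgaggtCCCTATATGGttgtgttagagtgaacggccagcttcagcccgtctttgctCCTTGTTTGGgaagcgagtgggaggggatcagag
Myl9: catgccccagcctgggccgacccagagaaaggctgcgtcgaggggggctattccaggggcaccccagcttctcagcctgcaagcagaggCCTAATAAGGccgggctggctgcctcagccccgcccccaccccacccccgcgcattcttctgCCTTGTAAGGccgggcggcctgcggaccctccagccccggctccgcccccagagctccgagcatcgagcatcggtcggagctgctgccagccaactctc
A match is a run of letters and not a measured site of binding.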

How the data were processed

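Kidney RNA of 3 Db and 3 Db + Ato10 samples was sequenced in bulk on a BGISEQ-500. The submitters' processing notes name HISAT, Bowtie2 2.2.5 and build mm9. The authors deposited expected counts, FPKM and TPM per gene and expected counts and TPM per transcript. Their strand setting and annotation are not given in the sources used here. Authors' group means were not used.

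Expected counts were rounded and genes reaching 10 counts in 3 or more libraries entered the test, in which edgeR 4.0.16 (TMM, quasi-likelihood test, Benjamini-Hochberg adjustment over all genes tested) compared the groups. The study names fold change over 1.5 and adjusted p under 0.05 and no test. The SE is the absolute log2 fold change over the root of the F statistic. DESeq2 1.42.0 and limma 3.58.1 served as alternatives, with other scaling, filters, pseudocounts, a replicate block and each library left out. The edgeR and DESeq2 fits were tested on simulated data in which both groups had the spread of the Db libraries. A wider spread in Db + Ato10, as seen for Fn1 and Vim, was not simulated. Whether libraries of a group came from separate mice is not stated in the labels, so p-values measure the spread between these samples. No 2 libraries were identical.

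The 10 genes and the 23 lists were chosen with earlier results of these data known. Named genes are the 10, the gene of highest mean TPM and the tested genes of highest and lowest log2 fold change of each list, and the 5 genes outside the 10 with the highest Pearson r with Acta2 and with Postn; other list genes were picked after their values were seen, and 2 genes that this rule names are not reported, though the list counts and sums include them. Of 145 list entries 143 were matched, 3 by an older symbol through RefSeq. Fn1 exons are from GENCODE M21.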

Additional observations from a re-analysis of the deposited data

How the results depend on the processing

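The edgeR count of 0 of the 10 genes past both criteria was the same with fold change over 2, with no fold change threshold, with limma-voom, upper-quartile scaling, either filter on low counts and limma on FPKM or TPM. DESeq2 gave 4, and 884 over all genes. Leaving out 1 library at a time gave 0 to 7 over edgeR and DESeq2, the DESeq2 fits without a library being chosen after seeing the data; edgeR gave 5 without Db + Ato10 replicate 3 (1106 of all genes), whereas DESeq2 gave 0 when Db replicate 1 was left out (195) and 7 when Db + Ato10 replicate 3 was (2614). The number at an unadjusted p under 0.05 was 6 in edgeR, where 2314 of all genes were so in either direction. It was 3 with limma on log2(FPKM + 1), log2(TPM + 1) or log2(TPM + 0.1), where 1915, 2177 and 2223 of all genes were. Without Db replicates 1, 2 and 3 it was 3, 4 and 2, beside 1043, 1657 and 1113 of all genes. With replicate 1, 2 or 3 of Db + Ato10 left out it was 4, 6 and 8, beside 1667, 1534 and 4038, so the count of 8 came with the largest number over all genes. The number higher without overlap of the groups was 3 in CPM (1640 of all genes) and 2 in TPM (1120). It was 7 in 2 cases, with Db replicate 2 left out (2763) or replicate 3 of Db + Ato10 left out (3536), and 3 or 4 with any other library left out (2064 to 2218). The median log2 fold change was 1.30, and 0.64 to 1.65 with 1 library left out. By transcript, 0 passed both criteria in edgeR, also with any library left out, and 3 in DESeq2. The causes of these differences were not tested.

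Without Db + Ato10 replicate 1 the log2 fold change turned for Myl9 (-0.15 to 0.46 over the libraries left out) and Pdgfra (-0.011 to 0.83). The other 8 genes kept their direction under all alternatives, the DESeq2 fits without a library included, with Fn1 between 1.91 and 3.57 and Vim between 1.16 and 3.14 with 1 library left out in edgeR. With all 6 libraries, the log2 fold change of Postn was 3.32 in edgeR, 2.31 with limma-voom and 1.18 with limma on log2(FPKM + 1). That of Tnc was 2.24, 2.09 and 1.42 in the same fits. Adjusted p over all alternatives was lowest in DESeq2 without Db + Ato10 replicate 3, at 0.000883 for Tagln, 3.57e-05 for Postn, 5.19e-09 for Fn1, 2.32e-08 for Tnc and 8.57e-06 for Vim, and reached 0.588 in edgeR without Db replicate 1 for each of these 5. Postn held 8 to 14 counts in the Db libraries, and it was not tested with at least 10 counts required in every library.

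Same-numbered libraries did not deviate together (correlations of deviations -0.15, 0.06 and 0.21), so the numbers were not taken to pair the mice. With a replicate block edgeR called 0 of the 10, had 5 at an unadjusted p under 0.05 (beside 1856 of all genes) and gave a median log2 fold change of 1.10.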

Other observations

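Some genes of the lists by role stood apart from Db in all 3 Db + Ato10 libraries, replicate 3 included, which the 10 genes mostly did not. Sprr1a, a precursor of the cornified envelope of squamous cells, was at 3.79, 6.39 and 3.63 TPM in Db and 34.2, 55.1 and 34.0 TPM in Db + Ato10. It was nearly as high in replicate 3 as in replicate 1, and gave log2 fold change 3.23 (SE 0.33, edgeR adjusted p = 0.239) and DESeq2 adjusted p = 6.02e-15.

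The basal keratins Krt5 and Krt14 pair to form filaments in stratified epithelium. Krt5 was at 0.33, 0.07 and 0.33 TPM in Db and 54.5, 32.5 and 9.08 TPM in Db + Ato10, and Krt14 was at 0.14, 0 and 0 TPM in Db and 31.4, 15.1 and 6.16 TPM in Db + Ato10. Both were close to 0 in every Db library and present in each Db + Ato10 library, lowest in replicate 3. Krt6a and Krt13, markers of other squamous epithelia, stayed at or near 0, with Krt13 at 0, 0 and 0 TPM in Db and 0.09, 0 and 0 TPM in Db + Ato10. The uroplakin genes, which mark the transitional lining of the renal pelvis, did not move alike. Upk1a was lowest of the list with log2 fold change -0.66 (SE 0.44, edgeR adjusted p = 0.445), whereas Upk3a, not tested for its low counts, was at 0.7, 0.15 and 1.14 TPM in Db and 9.59, 3.55 and 0.39 TPM in Db + Ato10. Upk2, also not tested, was at 1.3, 0.2 and 0.19 TPM in Db and 2.59, 0.47 and 0.35 TPM in Db + Ato10.

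In the other direction, Slc12a1, the salt cotransporter of the thick ascending limb, was at 863, 760.4 and 912 TPM in Db and 289.6, 219 and 347 TPM in Db + Ato10, below every Db library in all 3 treated libraries, with log2 fold change -1.47 (SE 0.29, edgeR adjusted p = 0.239) and DESeq2 adjusted p = 5.55e-06. Kcnj1, its potassium channel partner, was at 320.0, 289.9 and 295 TPM in Db and 118, 98.2 and 149 TPM in Db + Ato10. Whether these genes share a source with Fn1, Tnc or Vim was not tested.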
